A study of Ovis aries with 7 samples.

Results

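The growth hormone axis was described in the fetal sheep hypothalamus by GHRH (growth hormone-releasing hormone), GHRHR (its receptor) and SST (somatostatin). The members were all probes that the array names or describes as 1 of these genes. This gave 3 of 968 named genes and 5 of the 15008 distinct probes, with 2 probes for GHRH, 1 for GHRHR and 2 for SST. The array calls SST by its older name SRIF and lists GHRH under a locus number with a written description, and RefSeq's sheep gene table pairs both with the present symbols. Probes that the array calls SST1 and SST5 are for somatostatin receptors and were not counted as SST. RNA came from the hypothalamus of 7 late-gestation sheep fetuses with chronic catheters, each on its own 1-colour Agilent array. In 3 fetuses the ewe breathed gas low in oxygen for 30 min and then returned to normal oxygen for 30 min. The 4 control fetuses, of matched age, stayed at normal oxygen for the same 60 min. Tissue was taken at the end of the second period, so levels were read 60 min after hypoxia began and not during it.

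GHRH is made by neurons of the arcuate nucleus and drives growth hormone release through GHRHR, a receptor of pituitary somatotrophs that raises cyclic AMP. SST is made by periventricular neurons, among others, and restrains that release through its own receptors. Growth hormone in turn acts through GHR and STAT5 to raise IGF1. GHRHR is known mainly from the pituitary.

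The probe sequences from the array files are shown because they decide how far the probes of a gene are separate measurements. The probe name is followed by its sequence, and capitals mark the bases that only 1 of the 2 probes of a gene has.
GHRH A_70_P024161: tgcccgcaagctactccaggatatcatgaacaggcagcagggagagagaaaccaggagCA
GHRH A_70_P024162: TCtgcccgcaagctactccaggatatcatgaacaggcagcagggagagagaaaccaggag
GHRHR A_70_P012591: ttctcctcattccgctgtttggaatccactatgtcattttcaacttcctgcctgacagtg
SST A_70_P051296: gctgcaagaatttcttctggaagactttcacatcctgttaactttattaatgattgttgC
SST A_70_P051297: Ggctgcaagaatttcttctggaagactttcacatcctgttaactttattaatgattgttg
Each probe is 60 bases long. The GHRH probes share 58 bases and the SST probes share 59, so each pair reads the same stretch of its transcript and is a repeat spot rather than a second region. The files place these probes on transcripts only, and no genome position is given here.

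Levels are log2 processed signals relative to the 75th percentile of the same array, so that 0 is as bright as that percentile. All 3 hypoxia arrays were on slide 1, control replicates 1 and 2 on slide 2 and control replicates 3 and 4 on slide 3, so slide and treatment cannot be told apart. The share of spots well above background was 83.1% to 84.8% on the hypoxia arrays and 77.2% to 86.4% on the control arrays, lowest on control replicate 1. Of the hypothalamic peptide genes named on the array, OXT, NPY, AGRP, POMC, GAL and PMCH were well above background on all 7 arrays. The pituitary hormone genes GH and PRL stood far higher on control replicate 4 than on any other array, with GH at -1.82 there and -9.73 to -8.28 elsewhere, and PRL at 1.13 there and -5.14 to -3.46 elsewhere. The results below are therefore also given without single arrays where these change them.

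No difference between hypoxia and control was detected in GHRH, GHRHR or SST beyond the spread between fetuses. The limma fit over all 12711 tested probes, with p-values adjusted by Benjamini-Hochberg and a threshold of 0.05, called none of the 5 probes, against 0.0157% of all probes. None had an unadjusted p under 0.05, against 15.7% of all tested probes. None had groups that did not overlap, against 16.2%. All 5 probes had passed the filter on dim probes, which kept those well above background on 3 or more of the 7 arrays.

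**Figure D1:**
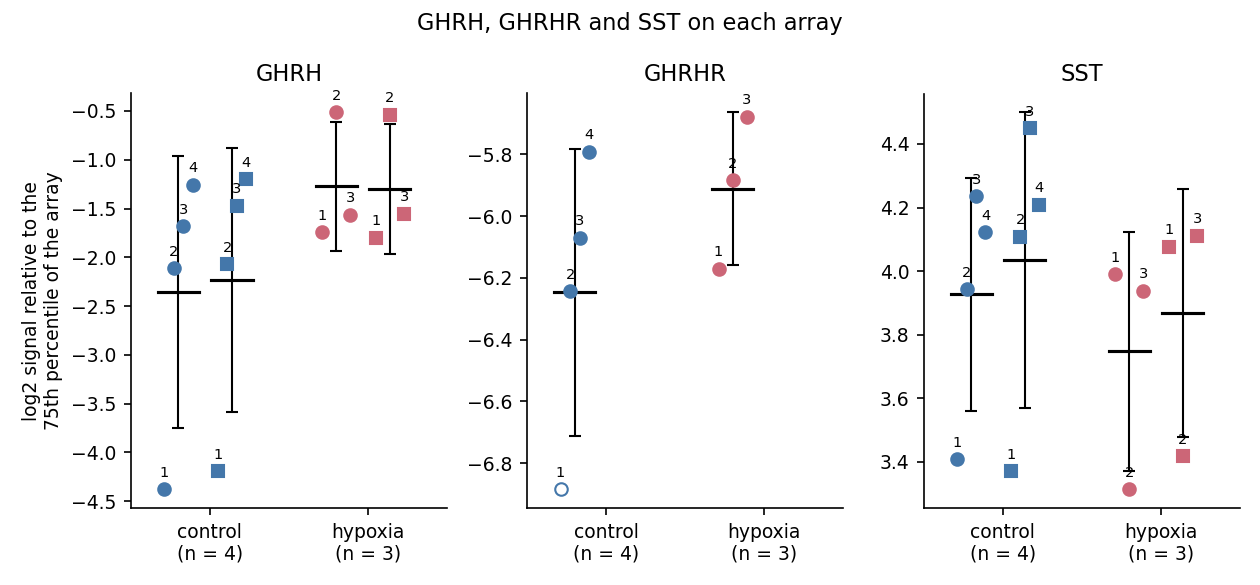
Level of each probe on each array, as log2 signal relative to the 75th percentile of that array, for 4 control (blue) and 3 hypoxia (red) fetuses; numbers are replicates, circles and squares the 2 probes of a gene, open symbols not well above background, bars the mean and SD. Control replicate 1 lies below every other array for GHRH (at -4.19 for the brighter probe) and for GHRHR, and the groups overlap in all 3 genes.

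GHRH, the releasing hormone, had levels of -1.80, -0.54 and -1.55 on hypoxia replicates 1, 2 and 3 (probe A_70_P024162, the brighter of its pair). Control replicates 1 to 4 stood at -4.19, -2.07, -1.47 and -1.20. Hypoxia replicate 2 was above every control, while hypoxia replicates 1 and 3 lay between control replicates 2 and 3, and control replicate 1 was below all other arrays. The mean was -1.30 ± 0.67 (SD, n = 3) in hypoxia and -2.23 ± 1.36 (SD, n = 4) in control. The log2 difference of 0.94 (SE 0.71) corresponds to 1.91-fold, with an adjusted p = 0.538 in limma. Its 95% interval ran from -0.72 to 2.60 on the log2 scale, or from 0.606-fold to 6.05-fold, so neither a lower nor a higher level within these bounds was excluded by the 7 arrays. An exact 2-sided permutation test over the 35 splits of the arrays gave p = 0.400 (adjusted over the 3 genes, 0.571), where 0.0571 is the smallest p that 3 against 4 can give. In bulk tissue, a change in the number of GHRH neurons and a change in GHRH RNA per neuron cannot be told apart.

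Most of the GHRH difference rested on 1 control fetus. Without control replicate 1 the log2 difference was 0.28, and without hypoxia replicate 2 it was 0.56. With the controls of slide 2 as the only comparison group it was 1.84 (adjusted p = 0.267 in limma). With those of slide 3 it was 0.04 (adjusted p = 0.975 in limma). The other GHRH probe gave 1.08 (SE 0.73, adjusted p = 0.486 in limma), with 0.41 without control replicate 1. Both probes gave the low value on control replicate 1, at processed signals of 99.2 and 113, and both were well above background there. On the other 6 arrays the signals of these probes ran from 468 to 1540.

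The spread of GHRH between fetuses was wide, mainly through control replicate 1. The control levels spanned 3.00 on the log2 scale, or 7.98-fold, against a span of 1.26, or 2.40-fold, in hypoxia. Without control replicate 1 the control span was 0.87, or 1.83-fold, narrower than that of hypoxia. The residual SD of the brighter probe was 1.13, larger than that of 98.5% of tested probes, whose median was 0.203. The paired probes differed from each other by 0.01 to 0.21 on the log2 scale over the 7 arrays (SD of the difference 0.10), which covers spot noise on the same labelled RNA only. Among 14 peptide genes, GHRH and SST included, the SD over the 4 controls was largest for OXT (1.65), followed by GHRH (1.36), GNRH1 (1.27) and NPVF (1.04), while SST had 0.465 (rank 10). Without control replicate 1 the SD of GHRH was 0.447 (rank 8) and that of SST 0.175 (rank 14). Other hypothalamic peptide genes differed in where control replicate 1 stood. NPY, which stimulates feeding, stood at 1.51 there against 0.84 to 2.13 on the other controls, AGRP, its partner peptide, at -1.19 against -1.90 to -0.53, and POMC, the melanocortin precursor, at 0.90 against 0.71 to 1.99, so none of these was lowest there. GAL (galanin) was at its lowest of all 7 arrays on control replicate 1, at -0.98. GRP (gastrin-releasing peptide) and NPVF (the gonadotropin-inhibitory peptide precursor) were also at their lowest on that array, at -2.79 and -2.0. TAC3 (neurokinin B) and GNRH1 (gonadotropin-releasing hormone) went the other way. They were at their highest of all 7 arrays on control replicate 1, at -1.68 and -3.23. All these genes were picked out after their values were seen.

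GHRHR, the receptor, was close to background. Its processed signals were 36.1, 37.3 and 45.9 on hypoxia replicates 1, 2 and 3, and 17.5, 26.7, 43.3 and 42.9 on control replicates 1 to 4. The spot was 1.58 to 2.26 times as bright as its local background, and it was well above background on 6 of 7 arrays, the exception being control replicate 1. On that array 4 of 77 negative control spots were at or above it, against 0 or 1 of 77 on the others. The levels were -6.17, -5.88 and -5.68 in hypoxia and -6.88, -6.24, -6.07 and -5.79 in control. Hypoxia replicate 3 was the brightest and control replicate 1 the dimmest, and the groups overlapped. The log2 difference was 0.34 (SE 0.26, adjusted p = 0.544 in limma), a 1.26-fold difference with a 95% interval of 0.831-fold to 1.92-fold. The exact permutation test gave p = 0.343 (adjusted over the 3 genes, 0.571). The log2 difference was 0.12 without control replicate 1, 0.22 without hypoxia replicate 3, 0.18 with normexp background correction and 0.11 with quantile normalization. With the slide 2 controls it was 0.65 and with the slide 3 controls 0.02, and the largest value with 1 array left out was 0.49, without control replicate 4.

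On control replicate 4, where GH and PRL stood far above all other arrays, GHRHR was at -5.79. This was the highest of the 4 controls and lay within the range of -6.17 to -5.68 of the hypoxia arrays. Of 9 anterior pituitary marker genes named on the array, FSHB was also highest on control replicate 4, at -3.09 against -9.60 to -6.09 elsewhere. CGA and TSHB, the subunits of thyrotropin, were highest on control replicate 3, at 1.39 and -3.16. The transcription factor gene POU1F1, another of these markers, was not well above background on any array. The marker score, the mean level over the 5 tested genes relative to each gene's own mean, ran from -1.68 to 1.1 in controls and from -1.25 to 0.71 in hypoxia. Its part in the GHRHR values was not tested.

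**Figure D2:**
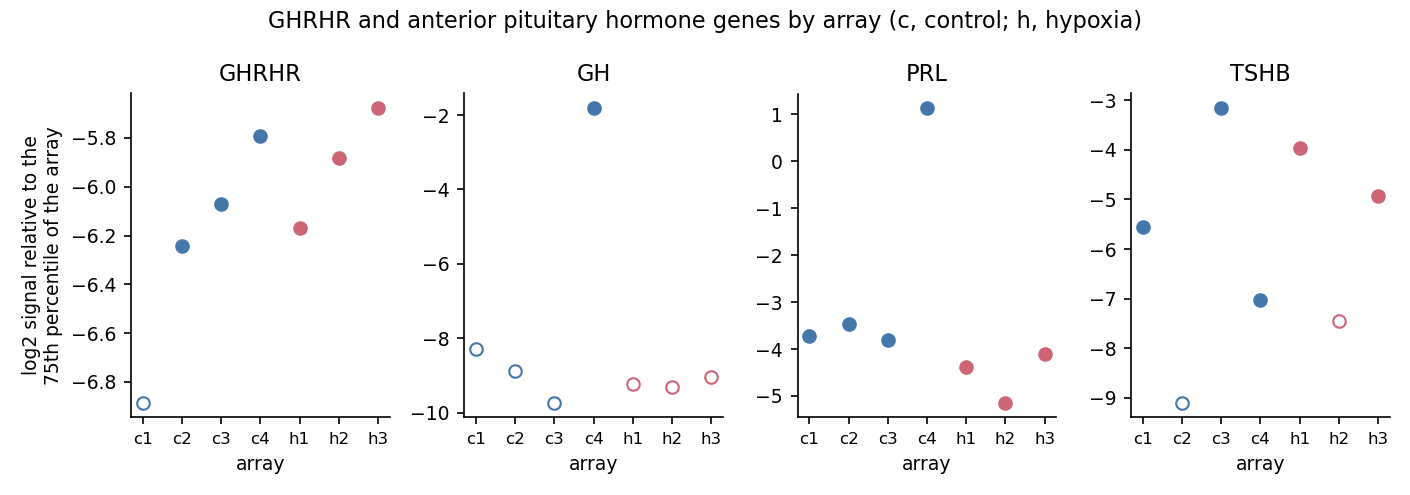
Levels of GHRHR, of the pituitary hormone genes GH (growth hormone) and PRL (prolactin) and of TSHB (thyrotropin beta) on each array, as log2 signal relative to the 75th percentile of the array; open symbols are not well above background, and each panel has its own scale. GH and PRL stand apart on control replicate 4 (c4), at -1.82 and 1.13, while GHRHR at -5.79 is the highest control but below hypoxia replicate 3.

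SST, the inhibitory peptide, was bright on every array, with processed signals of 21314 to 63522 over both probes. Levels were 4.08, 3.42 and 4.11 on hypoxia replicates 1, 2 and 3 and 3.37, 4.11, 4.45 and 4.21 on control replicates 1 to 4 (probe A_70_P051297). The lowest arrays were control replicate 1 and hypoxia replicate 2, 1 from each group, and all 3 hypoxia values were below the control median. The mean was 3.87 ± 0.39 (SD, n = 3) in hypoxia and 4.03 ± 0.47 (SD, n = 4) in control. The log2 difference was -0.17 (SE 0.29, adjusted p = 0.807 in limma), with a 95% interval of 0.562-fold to 1.41-fold. The exact permutation test gave p = 0.571 (the same adjusted over the 3 genes). The other SST probe gave -0.18 (SE 0.25, adjusted p = 0.750 in limma). The direction was not stable, being 0.06 when hypoxia replicate 2 was left out, 0.13 when only the slide 2 controls were used and -0.46 when only the slide 3 controls were used.

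**Figure D3:**
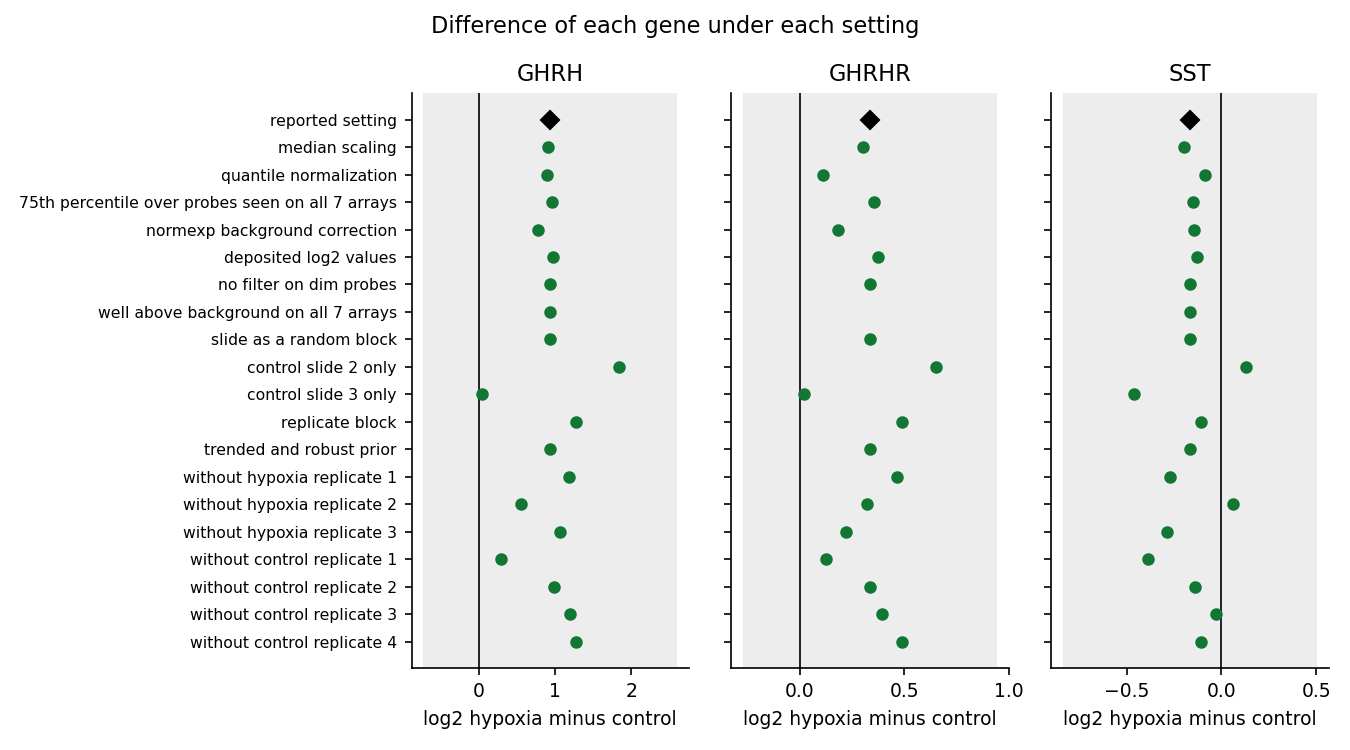
Log2 difference of hypoxia minus control for the brighter probe of GHRH, GHRHR and SST under the reported setting (diamond) and each alternative (circles), with the 95% interval of the reported setting shaded. Values for GHRH lie between 0.04 and 1.84 and those for SST fall on both sides of 0, and GHRHR has no value under the filter for all 7 arrays.

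The balance of the stimulating and the inhibiting peptide was read within each array as log2 GHRH minus log2 SST, which does not depend on scaling by 1 value per array. Relative to the control mean it was 0.39, 2.31 and 0.60 on hypoxia replicates 1, 2 and 3 and -1.30, 0.09, 0.35 and 0.86 on control replicates 1 to 4. Hypoxia replicate 2, with the most GHRH and the least SST of its group, was above every control, and the other 2 hypoxia arrays lay among the controls. The difference between the groups was 1.1, with SDs of 1.05 in hypoxia and 0.92 in control (exact permutation p = 0.229). Leaving out hypoxia replicate 2 gave 0.50, and leaving out control replicate 1 gave 0.67. This contrast was added after the data were seen.

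**Figure D4:**
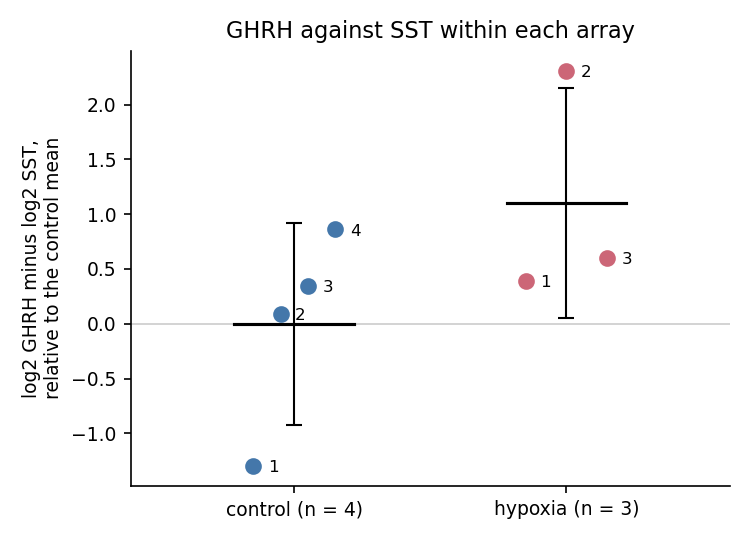
Log2 GHRH minus log2 SST on each array, relative to the control mean, for 4 control (blue) and 3 hypoxia (red) fetuses; numbers are replicates and bars the mean and SD. Hypoxia replicate 2 at 2.31 lies above all controls and control replicate 1 at -1.30 below all other arrays.

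Control fetuses on the 2 control slides were also compared, with no treatment between them. The mean of control replicates 3 and 4 exceeded that of control replicates 1 and 2 by 1.80 (SE 0.75) for GHRH, 0.63 (SE 0.27) for GHRHR and 0.59 (SE 0.30) for SST on the log2 scale. None was called in limma (adjusted p = 0.631, 0.637 and 0.670). In that fit 0.0157% of probes were called, and 7.99% had a p under 0.05 before adjustment. For GHRH this was larger than the difference of 0.94 between hypoxia and control, but without control replicate 1 it was 0.74, which is smaller. Without that array the GHRHR and SST differences were 0.31 and 0.22. With normexp background correction the GHRHR difference turned to -0.26.

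Over the 7 arrays, GHRH and GHRHR levels had a Pearson r of 0.90 (exact permutation p = 0.0187, adjusted over 3 pairs 0.0560) and a Spearman rho of 0.75 (exact permutation p = 0.0663, adjusted 0.199). Without the 2 arrays farthest from the GHRH median, control replicate 1 and hypoxia replicate 2, r was 0.74. Without control replicate 1 alone it was 0.57, and with normexp background correction of all 7 arrays 0.24, so its size changed with 1 array and with the background correction. GHRH and SST had r of 0.37 and rho of 0.39 (exact permutation p = 0.440 and 0.396, adjusted 0.440 and 0.396), and r was 0.48 without the same 2 arrays, 0.94 without hypoxia replicate 2 alone and -0.65 without control replicate 1 alone. SST and GHRHR had r of 0.48 and rho of 0.54 (exact permutation p = 0.279 and 0.236, adjusted 0.419 and 0.354). Without control replicate 1 and hypoxia replicate 2, which were also farthest from the SST median, their r was -0.00493, so this relation rested on those arrays. Neither group alone has enough arrays for a correlation.

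The genes with the pattern most like each member were sought among 839 named genes by Pearson r over the 7 arrays, as a description. For GHRH these included the tetraspanin gene CD9 (r = 0.96) and the innate immune receptor gene NOD2 (0.95), both well above background on 7 arrays. Without control replicate 1 their r was 0.81 and 0.75. For GHRHR they were SFTPB, a surfactant protein gene (0.97), the small GTPase gene RIT1 (0.96) and IGFBP1 (0.96), and SFTPB and IGFBP1 were, like GHRHR, well above background on 6 arrays. For SST they were B2M (0.98), the light chain of class I antigen molecules, NR5A1 (0.93), a transcription factor of the ventromedial hypothalamus, and PAG8 (0.93), a placental glycoprotein gene. NR5A1 and PAG8 were well above background on 4 and 3 arrays only. All these values share the same 7 arrays, their slides and their depth of signal.

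Among other genes of the axis, 11 of the 22 listed were named on the array and 7 were tested, and limma called none of them, also before adjustment. Of the 7, 2 had a positive and 5 a negative difference, with a median of -0.08 against 0.03 over all tested probes, of which 54.7% were positive. Among the somatostatin receptor genes, SSTR1 had a log2 difference of 0.05 (SE 0.12) and SSTR2 of -0.08 (SE 0.22). SSTR5 gave -0.20 (SE 0.15), but its other probe had the opposite sign, at 0.33. GHR, the growth hormone receptor, had a difference of -0.06 (SE 0.19). STAT5A, which carries its signal to the nucleus, had one of -0.32 (SE 0.19, adjusted p = 0.429 in limma). IGF1 and its receptor gene IGF1R had differences of 0.10 (SE 0.35) and -0.25 (SE 0.15). GHRL, the ghrelin precursor gene, its receptor gene GHSR and POU1F1 were not well above background on any array, and GH only on control replicate 4, so these 4 were not tested.

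**Figure D5:**
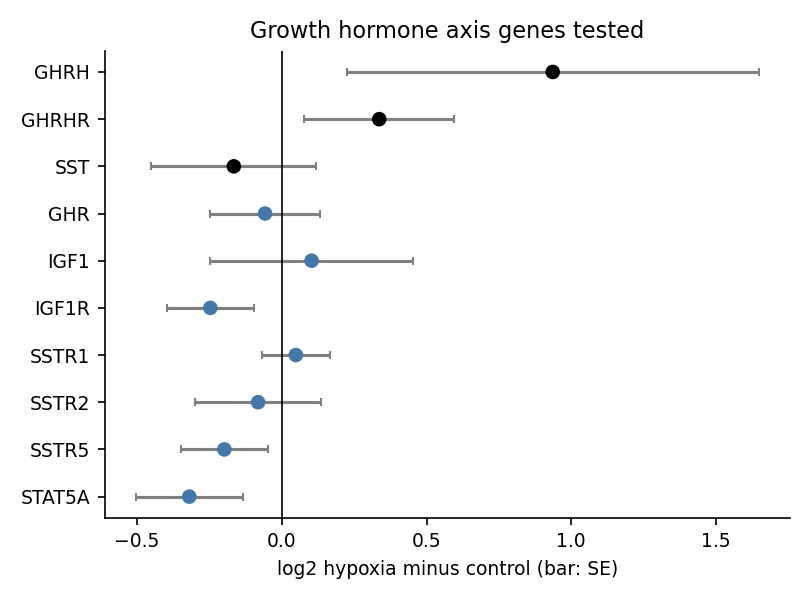
Log2 difference of hypoxia minus control with its SE (limma) for GHRH, GHRHR and SST (black) and the 7 other tested genes of the growth hormone axis (blue), 3 hypoxia against 4 control fetuses. GHRH lies farthest from 0, at 0.94, and has the widest bar.

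For the wider setting, the 12 other hypothalamic peptide genes tested split into 6 positive and 6 negative differences with a median of -0.01, and none passed in limma. TAC3 (neurokinin B) and TAC1 (substance P precursor) had the smallest unadjusted p, at -0.55 (SE 0.41) for TAC3 and 0.31 (SE 0.20) for TAC1 (adjusted p = 0.528 and 0.473 in limma). That median was 0.23 with the slide 2 controls, -0.36 with the slide 3 controls and -0.18 when control replicate 1 was left out. Of 10 genes for insulin-like growth factors, their receptors and binding proteins, 7 had negative differences and none passed, with a median of -0.19. IGFBP4 and IGFBP2, which hold these factors outside the cell, stood at -0.64 (SE 0.14) and -0.93 (SE 0.28) on the log2 scale, neither called in limma (adjusted p = 0.151 and 0.225). The enzymes that cut and trim prohormones were represented by PCSK1 and CPE, at -0.33 (SE 0.16) and -0.03 (SE 0.13), neither passing in limma (adjusted p = 0.353 and 0.943).

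Markers of other cells of the dissected tissue varied between the same arrays. All 4 astrocyte markers tested had positive differences with a median of 0.48, and none was called in limma. The smallest p were those of SLC4A4 (0.45, SE 0.15) and GJA1 (0.56, SE 0.20), with adjusted p = 0.245 and 0.270 in limma. Their mean score was lowest, at -0.55, on control replicate 1, where GHRH was also lowest, against -0.21 to 0.31 on the other arrays. All 5 markers of meninges and fibroblasts had negative differences with a median of -0.69. The smallest p were those of IGFBP2, given above, and COL3A1 (-0.69, SE 0.25, adjusted p = 0.265 in limma), while IGF2 had the largest difference, -1.28 (SE 0.74, adjusted p = 0.429 in limma). Their score ran from -0.53 to 0.73 in controls and from -0.88 to -0.02 in hypoxia. The 2 endothelial markers KDR and PECAM1 were at -0.51 (SE 0.24) and -0.26 (SE 0.21), and the 2 microglial markers ITGAM and CD14 at 0.22 (SE 0.20) and 0.15 (SE 0.14). Like the astrocyte score, the microglial score was lowest on control replicate 1, at -0.455 against -0.017 to 0.218 on the other arrays. The scores of endothelium and of meninges and fibroblasts were not lowest there. Of the 5 anterior pituitary markers tested, 4 had positive differences, with a median of 0.39. That median was 0.53 with the slide 2 controls and -0.36 with the slide 3 controls. The smallest p were those of LHB (0.39, SE 0.13) and PRL (-2.08, SE 1.18), neither called in limma (adjusted p = 0.250 and 0.420). Without control replicate 4 the PRL difference was -0.88 (SE 0.27, adjusted p = 0.236 in limma). The part of any of these cells in the values of GHRH, GHRHR and SST was not tested.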

How the data were processed

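RNA of 7 fetal hypothalami was measured on 1-colour (Cy3) Agilent arrays. Spot intensities were deposited as written by Feature Extraction 10.1.1.1, background-subtracted within each array, per the file headers. The deposited log2 values are log2 of the same processed signals. Here log2 processed signals were set relative to the 75th percentile of each array, 34 outlier values were left out, and spots of a probe were averaged. Of 15008 probes, 12711 were tested with limma 3.58.1 in R 4.3.3 (2-sided, Benjamini-Hochberg), without a replicate block. Single values were tested by exact permutation over samples. The limma step was checked on simulated data. The arrays' number limits the precision. A gene's brightest probe stands for it. From each gene list other than the axis, the 2 genes with the smallest p are named. Some genes that these rules pick are not reported here and were left out of the lists. The members and lists were chosen with earlier results of these data known. Symbols came from RefSeq's sheep table (assembly ARS-UI_Ramb_v3.0) for accessions, gene IDs and symbols, and 13445 probes stayed unnamed. Alternatives were other scalings, background corrections, filters, slides, blocks and left-out arrays. The control slides and peptide spread without single controls, and PRL without control replicate 4, were added after seeing the data. To look for pairs, each probe's deviations from its group mean were correlated between hypoxia and control arrays. Same-numbered arrays gave r of 0.121, 0.0876 and 0.107, and differently numbered ones -0.114 to 0.0615. The same-numbered arrays were thus slightly more alike in these deviations, and whether the numbers mark pairs was not settled. The reported fit did not take them as pairs, and the alternative with a replicate block did.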

Additional observations from a re-analysis of the deposited data

Results flagged for a closer look

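In 4 of 56 sets of 4 control values, 1 fetus stood apart from the other 3, where chance alone gives about 2.8, or 1 in 20. The sets share the same 4 arrays and so are not independent, and the count cannot be judged against that number. None of the 4 sets that stood apart was a probe of GHRH, GHRHR or SST. The low GHRH value of control replicate 1 did not stand apart by this measure. PRL was 1.13 on control replicate 4 and -3.80 to -3.46 on the other controls. ADCYAP1, the gene of the peptide PACAP, was 4.42 on the same array and 3.61 to 3.68 on the others. NR5A1, a gene whose pattern was among those most like SST, was -8.60 on control replicate 1, where it was not well above background, and -6.75 to -6.59 on the others. DCN, a fibroblast matrix gene, was 1.23 on control replicate 2 and 2.01 to 2.09 on the others.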

How the results depend on the processing

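Over all probes, 2 passed the adjusted threshold in limma. The count was 0 with the percentile taken over probes seen on all 7 arrays, with no filter on dim probes and with the replicate block, 10 with normexp background correction, 10 with the deposited log2 values, 25 with the filter for all 7 arrays, 57 with a trended and robust prior, 232 with the slide 2 controls, 4 with the slide 3 controls and 0 to 6 with 1 array left out. The cause was not tested. No probe of GHRH, GHRHR or SST passed under any alternative run, and adjusted p for the brighter probes ran over 0.267 to 0.975, 0.241 to 0.971 and 0.458 to 0.977. With the replicate block the log2 differences were 1.28, 0.49 and -0.11. GHRH and GHRHR kept their sign throughout, while SST turned to 0.13 and 0.072 (its 2 probes) with the slide 2 controls. With 1 array left out the SST probes ranged from -0.39 to 0.059 and from -0.35 to 0.037. The GHRHR difference between control slides turned to -0.26 with normexp, and GHRHR has no value under the filter for all 7 arrays. With 1 array left out, r ranged from -0.65 to 0.94 for GHRH and SST, from 0.57 to 0.97 for GHRH and GHRHR and from -0.18 to 0.79 for SST and GHRHR. With normexp the last 2 were 0.24 and -0.65. The median over the other genes of the axis was -0.27 with the slide 2 controls, -0.18 with the replicate block and ranged from -0.18 to -0.050 with 1 array left out. The GHRHR signal, close to background, limits each of its values.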

Other observations

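Of the genes that carry the cyclic AMP signal of receptors such as GHRHR, 3 of 19 listed were named on the array. CREM, a cyclic AMP-responsive repressor and activator gene, stood at 0.44 (SE 0.13) and PRKAR1A, a regulatory subunit of protein kinase A, at 0.04 (SE 0.10) on the log2 scale, neither called in limma (adjusted p = 0.215 and 0.872). Of 21 listed transcription factor genes of hypothalamic neurons, 3 were tested. NEUROD1 stood at -0.60 (SE 0.14) and ARNT2 at -0.10 (SE 0.19), neither called in limma (adjusted p = 0.160 and 0.825). CREM, at -3.63 to -3.48 in hypoxia and -4.23 to -3.79 in control, and NEUROD1, at -3.28 to -2.87 and -2.62 to -2.27, had groups that did not overlap, as did 16.2% of all tested probes. The median over the 3 transcription factor genes was -0.10, and -0.59 without hypoxia replicate 3. No gene of the lists for neurons, oligodendrocytes, ependyma, thalamus or GABA and dopamine neurons was named on the array.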
